A study of Mus musculus with 2 samples.

Results

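Mir192, Mir194-1, Mir194-2, Mir215, Mir216a, Mir216b and Mir217 are miRNA genes best known from liver, gut, kidney and pancreas. They were chosen by name, not by their values, as miRNAs of organs outside the face, and these 7 are of 1973 miRNA genes with a row in the count files. The libraries came from tissue labelled embryonic facial prominence, of strain B6NCrl mouse embryos at day 14.5. Facial prominences are the parts of an embryo that form the face and jaws. No treatment, mutation or comparison tissue is named in the labels. There were 2 biological replicates, collected on different days; each is called a single cranioface of a pup, while sex is given as male and female pooled, so whether a replicate is 1 embryo was not settled. Gene-strand miRNA counts totalled 6602050 in replicate 2 and 2719153 in replicate 1, and 717 genes had at least 1 count in either library.

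A miRNA is cut from a hairpin in a longer transcript, and its seed, bases 2 to 8 of the mature strand, pairs with target mRNAs. miR-192, miR-194 and miR-215 are abundant in the epithelial cells of the liver, intestine and kidney, where their genes lie in pairs and are transcribed together. miR-216a, miR-216b and miR-217 are made from a single locus and are known from the acinar cells of the exocrine pancreas, which secrete digestive enzymes. None of these organs is part of the facial prominences, which is why the genes serve as an off-tissue reference.

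The mature strands below show which of these miRNAs share a seed and which could be told apart by the counting. They were read from RefSeq on GRCm38.p6, where all 7 genes were matched, and capitals mark the seed.
miR-192-5p (Mir192): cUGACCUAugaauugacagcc
miR-215-5p (Mir215): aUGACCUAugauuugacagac
miR-194-5p (Mir194-1 and Mir194-2): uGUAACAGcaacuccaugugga
miR-194-1-3p (Mir194-1): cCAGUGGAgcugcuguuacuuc
miR-194-2-3p (Mir194-2): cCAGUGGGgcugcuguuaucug
miR-216a-5p (Mir216a): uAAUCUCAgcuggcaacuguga
miR-216b-5p (Mir216b): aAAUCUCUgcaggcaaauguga
miR-217-5p (Mir217): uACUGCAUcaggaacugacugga

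miR-192-5p and miR-215-5p have the same seed and differ at 3 of 21 positions, counted from 1 at the 5′ end as C1A, A12U and C20A (the base of miR-192-5p first). Their hairpins share no more than 10 bases in a row, so a full-length read of either belongs to its own gene. miR-194-5p is different: its 22 bases stand unchanged in the hairpins of both Mir194-1 and Mir194-2, and those 22 bases are also the longest stretch the hairpins share. A read that lies within them therefore has at least 2 positions, as judged from the RefSeq hairpins and not from the genome. In the layout the files appear to have, such a read enters no gene's count. The 3p strands of the miR-194 genes differ at 4 of 22 positions, A8G, C19U, U20C and C22G, the first of them inside the seed. The files do not record which strand a count came from, so the counts of the miR-194 genes are those of whatever reads could be placed once, and can miss much of miR-194. miR-216a-5p and miR-216b-5p differ at 4 of 22 positions, U1A, A8U, U11A and C17A, and the seeds differ at the position of A8U. No other hairpin in the table shares a 20-base stretch with Mir192, Mir215, Mir216a, Mir216b or Mir217.

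On assembly mm10 the 7 genes lie at 3 loci, all on the plus strand. Mir194-2 (ENSMUSG00000065582.1, chr19:6264643-6264728) and Mir192 (ENSMUSG00000065523.1, chr19:6264844-6264932) are 115 bases apart and lie in no other gene of GENCODE M21, with the autophagy gene Atg2a the nearest, 2308 bases from Mir194-2. Mir194-1 (ENSMUSG00000065581.1, chr1:185313319-185313385) and Mir215 (ENSMUSG00000065562.1, chr1:185313581-185313692) are 195 bases apart. Both lie in the noncoding gene 2010103J01Rik, Mir194-1 in an intron and Mir215 in an exon, and on the opposite strand in an intron of Iars2, which encodes a mitochondrial isoleucyl-tRNA synthetase. Mir216a (ENSMUSG00000065539.1, chr11:28757012-28757083) and Mir217 (ENSMUSG00000065415.1, chr11:28763728-28763835) lie in introns of the long noncoding gene Gm12082. Mir216b (ENSMUSG00000076318.1, chr11:28746191-28746276) lies 10735 bases before Mir216a, outside that gene, and overlaps Mir216c on the opposite strand.

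All 7 genes had counts in both libraries, at mean levels from 1.01 to 81.7 CPM (counts scaled to a common gene-strand total). Their summed level was 152 CPM in replicate 2 (exact Poisson 95% interval 143 to 162, 1006 counts) and 167 CPM in replicate 1 (152 to 183, 453 counts), a mean of 159 ± 10.1 CPM (SD, n = 2). That is 0.0152% and 0.0167% of the miRNA counts. The intervals overlap and cover counting error only. In bulk tissue, few cells with much of a miRNA and many cells with little of it cannot be told apart.

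The chromosome 19 locus carried most of the sum. Mir192, which like its neighbour is known from hepatocytes and gut epithelium, had 578 counts or 87.5 CPM in replicate 2, and 206 counts or 75.8 CPM in replicate 1, a mean of 81.7 ± 8.34 CPM. It ranked 206 and 215 among all genes, and 70.7% of the 717 detected genes had a lower mean. Mir194-2 had 265 counts or 40.1 CPM in replicate 2, and 156 counts or 57.4 CPM in replicate 1, a mean of 48.8 ± 12.2 CPM, at ranks 237 and 226. By uniquely placed reads, Mir192 was thus higher than Mir194-2 in each library, and their 4 values did not overlap. Reads that Mir194-2 shares with Mir194-1 can be missing from its count, while Mir192 has no such relative. Which of the miRNAs was more abundant was therefore not settled. Together Mir192 and Mir194-2 held 83.8% of the counts of the 7 genes in replicate 2 and 79.9% in replicate 1.

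The chromosome 1 pair, whose 5p strands have the same seeds as those of the chromosome 19 pair, was near the limit of detection. Mir215 had 1.21 CPM in replicate 2 (8 counts, exact Poisson 95% interval 0.523 to 2.39 CPM) and 1.10 CPM in replicate 1 (3 counts, 0.228 to 3.22 CPM). Mir194-1 had 6 counts or 0.909 CPM in replicate 2, and 3 counts or 1.10 CPM in replicate 1. In replicate 1 both genes stood at 3 counts, the number that a count of 0 would still allow, so their order cannot be given. Mir192 held 98.6% of the joint counts of Mir192 and Mir215, whose 5p strands share a seed, in each library. The 95% Clopper-Pearson intervals were 97.3 to 99.4% in replicate 2 and 95.9 to 99.7% in replicate 1. This is a share between genes, as the counts do not tell the 5p from the 3p strand. Of the joint counts of the miR-194 genes, Mir194-2 held 97.8% in replicate 2 (95.2 to 99.2%) and 98.1% in replicate 1 (94.6 to 99.6%). That share describes uniquely placed reads, not miR-194-5p, which either gene can make.

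The pancreatic locus on chromosome 11 was lower than the chromosome 19 locus but above the floor of 3 counts, which is 0.454 CPM in replicate 2 and 1.10 CPM in replicate 1. Mir217 had 75 counts or 11.4 CPM in replicate 2, and 52 counts or 19.1 CPM in replicate 1, a mean of 15.2 ± 5.49 CPM. Mir216b had 52 counts or 7.88 CPM in replicate 2, and 22 counts or 8.09 CPM in replicate 1, a mean of 7.98 ± 0.15 CPM. The lowest of the locus, Mir216a, had 22 counts or 3.33 CPM in replicate 2, and 11 counts or 4.05 CPM in replicate 1, a mean of 3.69 ± 0.50 CPM. The order Mir217, Mir216b, Mir216a was the same in each library. The locus summed to 22.6 CPM in replicate 2 (19.1 to 26.5) and 31.3 CPM in replicate 1 (25.0 to 38.7), which was 14.8% and 18.8% of the counts of the 7 genes.

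**Figure D1:**
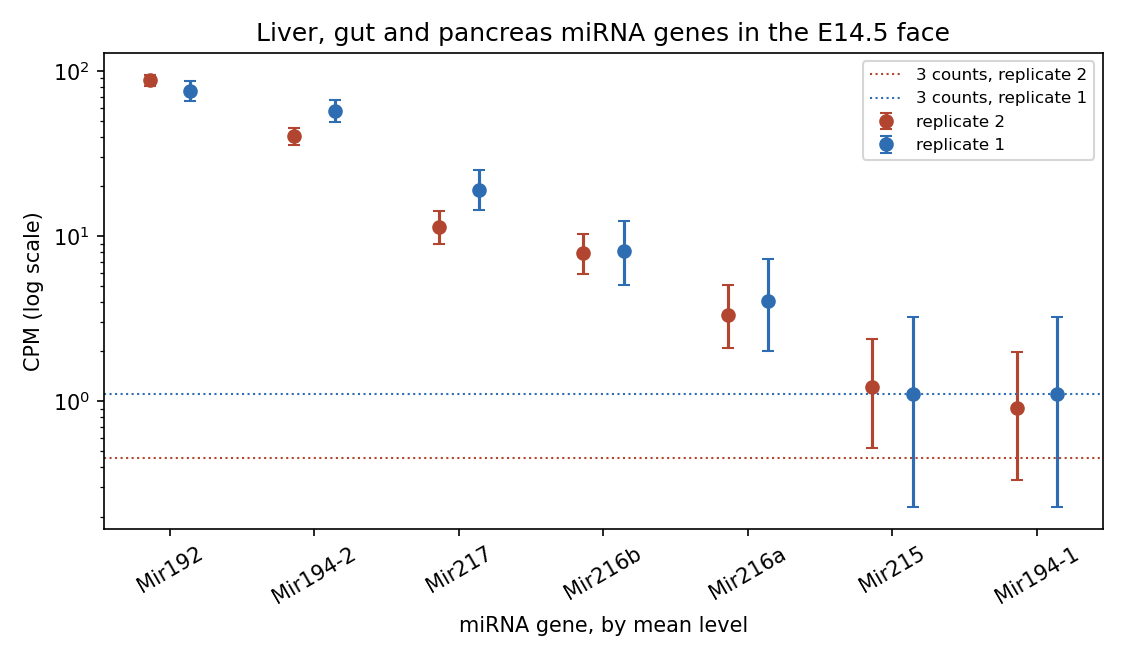
CPM of each gene (log axis) in replicate 2 (left of each pair) and replicate 1, with exact Poisson 95% intervals as bars and the level of 3 counts as a dotted line for each library. Mir192 stands highest at 87.5 and 75.8 CPM, and Mir215 and Mir194-1 stand near the line of 3 counts.

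By mean CPM the order was Mir192, Mir194-2, Mir217, Mir216b and Mir216a, followed by Mir215 and Mir194-1, which could not be ordered. Counting intervals did not overlap in either library between Mir194-2 and Mir217, which differed 3.53-fold in replicate 2 and 3-fold in replicate 1. Other neighbours were less firmly separated. The intervals of Mir192 and Mir194-2 overlapped in replicate 1, those of Mir217 and Mir216b in replicate 2, those of Mir216b and Mir216a in replicate 1, those of Mir216a and Mir215 in each library, and those of Mir215 and Mir194-1 in each library. The places of Mir194-2 and Mir194-1 in this order rest on uniquely placed reads, which can miss much of what these genes make. Comparisons of level between miRNAs also carry the unequal capture of different sequences by adapter ligation, which these files cannot measure.

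**Figure D2:**
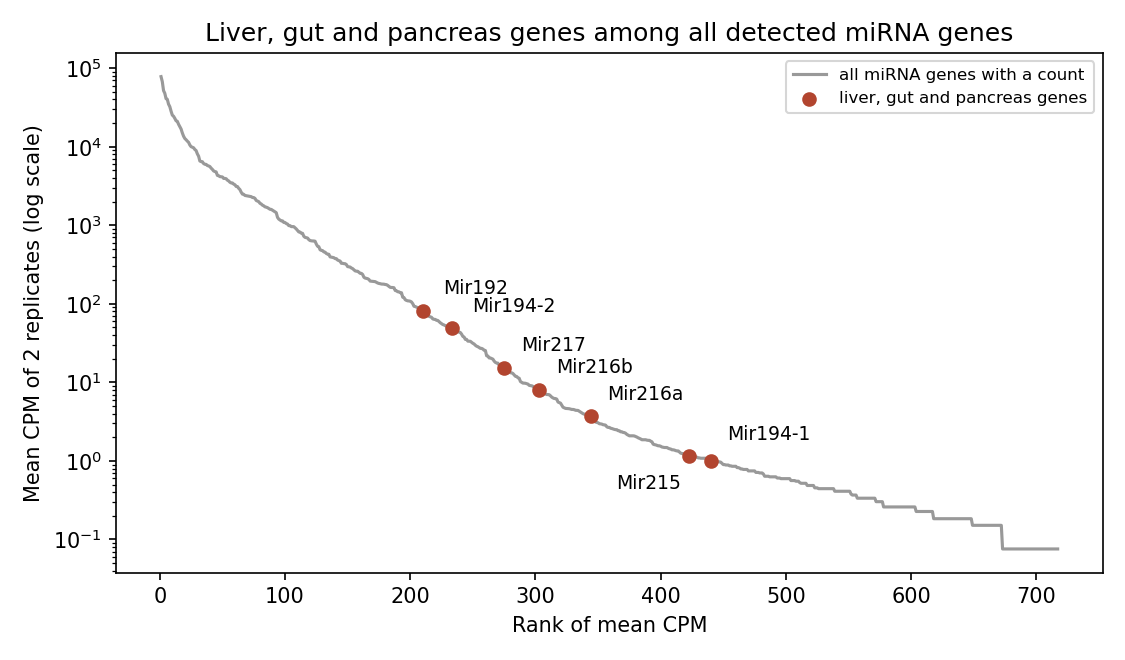
Mean CPM of the 717 detected miRNA genes (log axis) against their rank, with the liver, gut and pancreas genes as filled points. Mir192 lies at rank 210 and Mir194-1 at rank 440, and the highest gene of the tissue is 956-fold above Mir192.

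Set beside other marker lists, these genes were at the low end by summed CPM. The lists differ in number of genes, and a sum can come mostly from 1 gene. By the mean CPM of its median gene, this list stood at 7.98 CPM, above the neural (7.00 CPM) and pluripotency (2.50 CPM) lists. All other lists had higher medians, the lowest being 50.6 CPM for eye and choroid. The sum of the 7 genes was close to that of the 11 pluripotency genes with a row (led by Mir302a and Mir302d), which had 132 CPM in replicate 2 (123 to 141) and 190 CPM in replicate 1 (174 to 207). The order was not stable: the liver, gut and pancreas genes were above the pluripotency genes in replicate 2 and below them in replicate 1. The endocrine sum was well above that of the 7 genes, but it came mostly from Mir375. Mir375, a miRNA of pancreatic islet cells and also of pituitary and gut endocrine cells, had 1197 CPM in replicate 2 and 784 CPM in replicate 1, and with Mir7b (180 ± 31.0 CPM) led an endocrine sum 9.73 times that of the 7 genes in replicate 2 and 6.25 times in replicate 1. The remaining endocrine genes had means of 73.8 and 17.6 CPM, below the 81.7 CPM of Mir192. The acinar genes of the pancreas, Mir216a, Mir216b and Mir217, summed to 26.9 ± 6.15 CPM.

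Blood markers were measured beside them because the fetal liver is a blood-forming organ. Erythroid Mir451a had 1288 CPM in replicate 2 and 986 CPM in replicate 1, with Mir144 next at 92.2 ± 8.66 CPM, and the 3 erythroid genes summed to 9.23 and 6.56 times the 7 genes. Leukocyte Mir223 (626 ± 118 CPM) and Mir155 (68.4 ± 3.58 CPM) led a sum of 807 CPM in replicate 2 and 633 CPM in replicate 1. With TMM scaling, which is described with the test between libraries, the log2 ratio of replicate 2 over replicate 1 was 0.49 for the erythroid sum, 0.48 for the leukocyte sum and -0.0041 for the sum of the 7 genes, which did not all lie on the same side of 0. The difference between these ratios was not tested. The eye and choroid genes, led by Mir204 (639 ± 238 CPM) and Mir211 (50.6 ± 13.9 CPM), summed to 737 ± 251 CPM. The neural genes, led by Mir137 and Mir338, summed to 1227 ± 171 CPM, and 4 of the 11 with a row had no count in either library. The leukocyte sum covers the 3 listed genes with a row. In the layout the files appear to have, each sum holds only reads placed once, so it can miss miRNAs made from several genes. Cell types that build the face lay far higher, with epithelial, endothelial and cartilage sums 274 to 443 times that of the 7 genes in replicate 2 and 250 to 315 times in replicate 1. The lists were chosen with earlier results of these data known. No list was tested against another, and with 2 libraries the smallest p of an exact permutation test is 0.5.

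**Figure D3:**
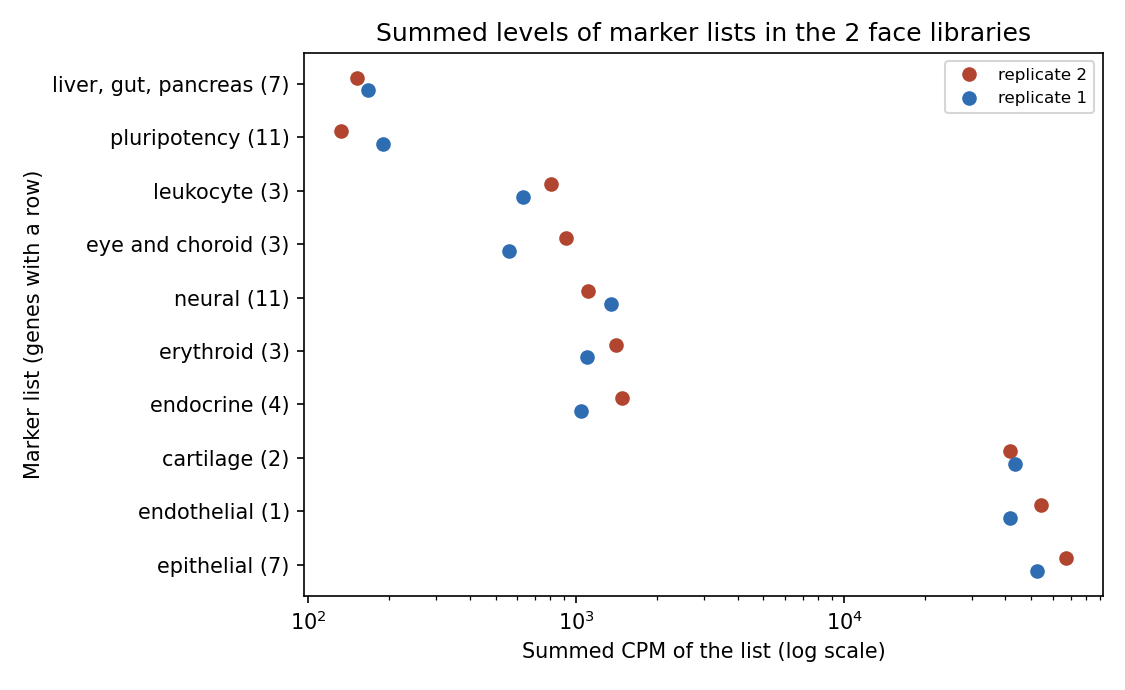
Summed CPM (log axis) of each marker list in replicate 2 and replicate 1, with the number of genes with a row in brackets. The liver, gut and pancreas genes at 152 and 167 CPM sit beside the pluripotency genes, and the lowest value of any other list is 559 CPM.

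Between the libraries, Mir192 was higher and Mir194-2 and Mir217 lower in replicate 2. Each gene's 2 counts were compared by an exact two-sided binomial test scaled by TMM. This normalization in edgeR sets the trimmed mean log2 ratio of the genes to 0. The p-values were adjusted by Benjamini-Hochberg over all 372 genes with a mean of at least 10 counts. The test compares 2 libraries beyond counting error and leaves out the spread between animals. Mir192 had a log2 ratio, replicate 2 over replicate 1, of 0.33 (95% interval 0.10 to 0.57, exact binomial adjusted p = 0.00933). Mir194-2 had -0.39 (-0.68 to -0.10, exact binomial adjusted p = 0.0177), and Mir217 had -0.63 (-1.16 to -0.087, exact binomial adjusted p = 0.0406). Mir216b at 0.07 (-0.66 to 0.88) and Mir216a at -0.19 (-1.26 to 1.04) did not pass, and their intervals were wide. Mir215 and Mir194-1 had too few counts to enter the test.

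Calls of this kind were common among all genes. Of the 372 tested genes 52.2% were called, 27.4% as higher and 24.7% as lower in replicate 2, against 3 of the 5 tested liver, gut and pancreas genes, 1 higher and 2 lower. Among the 173 tested genes with a mean under 500 counts, a range that holds these 5 and was set after the values were seen, 22.5% were called. The median log2 ratio was -0.19 over the 5 genes and -0.02 over all tested genes. Of all tested genes, 35.5% had a log2 ratio at least as far from 0 as Mir192, 28.5% as Mir194-2 and 12.6% as Mir217. The biological coefficient of variation between the replicates, 20.9% over the tested genes, corresponds to an SD of 0.43 for a log2 ratio. The ratios of Mir192 and Mir194-2 lay within that SD, and that of Mir217 at 1.26 SD once its counting error of 0.26 was added.

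The calls depended on the scaling and the count filter, and they changed in thinned data. With total counts in place of TMM, which moved the median of all genes to -0.14 and the split over all genes to 64 higher and 133 lower (102 higher and 92 lower with TMM), Mir192 stood at 0.21 (exact binomial adjusted p = 0.133) and was no longer called. Mir217 lost its call at a log2 ratio of -0.57 with DESeq2 size factors (exact binomial adjusted p = 0.0683) and at an unchanged -0.63 with no count filter, where 717 genes were tested (exact binomial adjusted p = 0.0770). With replicate 2 thinned to the depth of replicate 1, Mir217 stood at -0.40 (exact binomial adjusted p = 0.309) and Mir194-2 at -0.34 (exact binomial adjusted p = 0.107), and neither was called. The thinning was 1 random draw, so the effect of depth on these values was not separated from that of the draw.

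**Figure D4:**
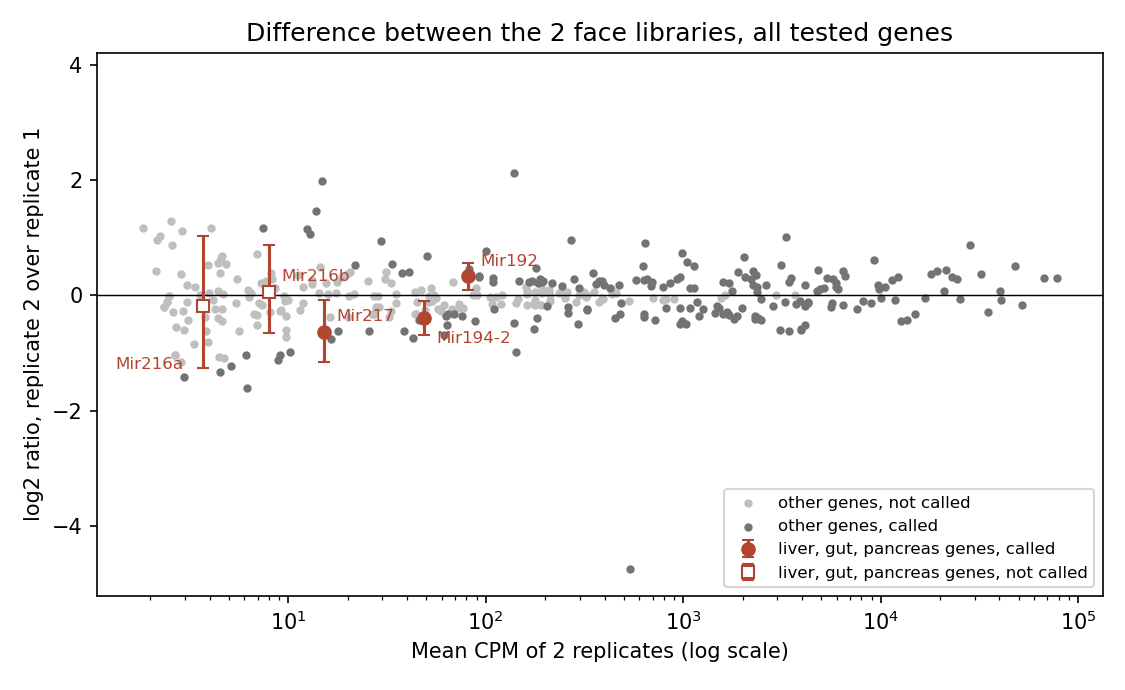
Log2 ratio of replicate 2 over replicate 1 against mean CPM (log axis) for the 372 tested genes, with called genes in dark grey and the 5 tested liver, gut and pancreas genes in red with 95% intervals. Filled red circles mark Mir192, Mir194-2 and Mir217, and open squares mark Mir216a and Mir216b, whose wide intervals cross 0.

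Within the chromosome 19 locus the balance of the neighbouring genes differed between the libraries, a comparison that needs no scaling. Mir192 made up 68.6% of the joint counts of Mir192 and Mir194-2 in replicate 2 (95% Clopper-Pearson interval 65.3 to 71.7, 843 counts) and 56.9% in replicate 1 (51.6 to 62.1, 362 counts). The intervals do not overlap (exact two-sided Fisher test between the libraries, p = 0.000129, Benjamini-Hochberg adjusted p = 0.00103 over the 8 shares compared). The sum of the pair was nearly the same, 128 CPM in replicate 2 and 133 CPM in replicate 1. Reads of miR-194-5p placed at several positions would be missing from Mir194-2, and the share of multiply placed reads was 28.5% for replicate 2 and 29.8% for replicate 1. Their part in the shift was not tested.

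A called shift was common among neighbours, while a difference of this size was less so. Among 112 neighbouring pairs of tested miRNA genes on the same strand, at most 10000 bases apart, the ratio of the counts differed between the libraries in 49.1% (exact Fisher test, adjusted over all pairs), a comparison added after the values were seen. That share covers pairs of all count levels, and the share among pairs with counts like those of the chromosome 19 pair was not computed. In 12 of the 112 pairs, the chromosome 19 pair included, the log2 ratios of the neighbours lay at least as far apart as the 0.72 between Mir194-2 and Mir192. Both neighbours were called in 52 pairs, and in opposite directions in 17 of these, 18 with total counts and 12 with DESeq2 size factors.

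At the pancreatic locus no shift of balance was detectable at this depth. Mir217 made up 50.3% of the counts of the 3 genes in replicate 2 (42.0 to 58.6, 149 counts) and 61.2% in replicate 1 (50.0 to 71.6, 85 counts; exact two-sided Fisher test, p = 0.133, adjusted p = 0.356). Mir216b made up 34.9% in replicate 2 and 25.9% in replicate 1 (exact Fisher test, adjusted p = 0.377), and Mir216a 14.8% and 12.9% (exact Fisher test, adjusted p = 1). The share of this locus in the counts of all 7 genes was 14.8% in replicate 2 (12.7 to 17.2) and 18.8% in replicate 1 (15.3 to 22.7; exact Fisher test, adjusted p = 0.256).

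**Figure D5:**
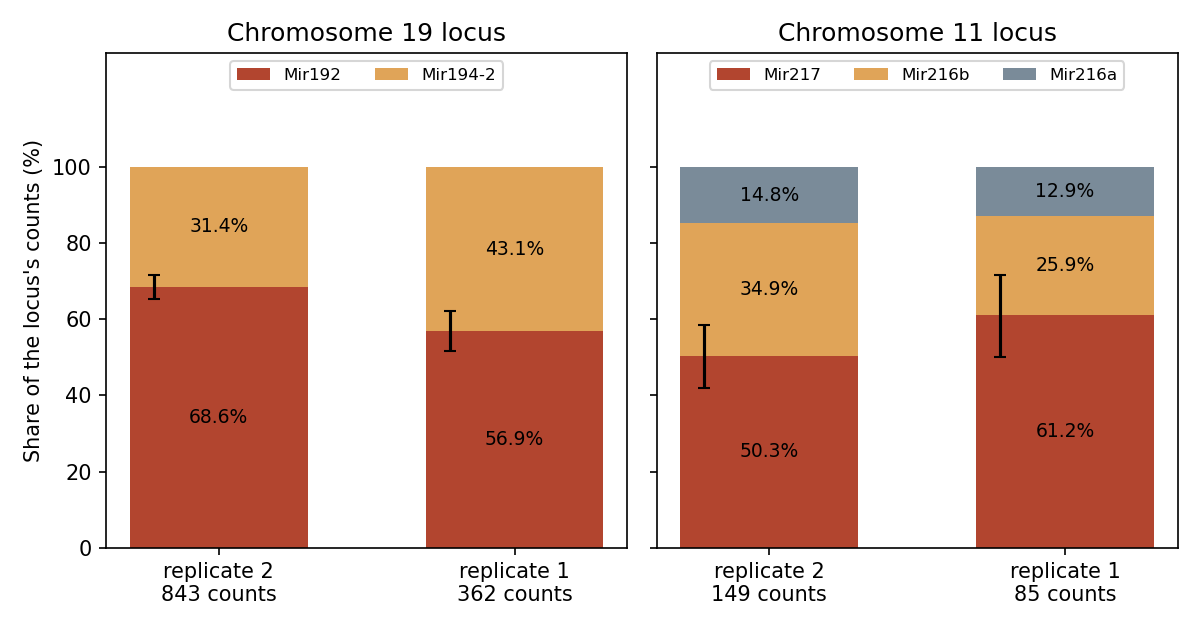
Share of each gene in the counts of its locus in replicate 2 and replicate 1, with the number of counts under each bar and a 95% Clopper-Pearson interval on the share of the lowest block. The share of Mir192 is 68.6% and 56.9%, with intervals that do not overlap, while the intervals for Mir217 overlap.

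The genes whose levels in the 2 libraries lay nearest to each tested gene, by distance on log2(CPM + 1), came from different groups. Nearest to Mir192 were Mir1981 (91.3 CPM in replicate 2 and 72.8 CPM in replicate 1), Mir345 (89.1 and 89.0 CPM) and the erythroid Mir144 (98.3 and 86.1 CPM). Nearest to Mir194-2 were Mir383 (43.3 and 55.9 CPM), Mir302d of the pluripotency genes (37.4 and 54.8 CPM) and Mir450-1 (37.7 and 51.5 CPM). Mir217 was nearest to Mir488 (11.7 and 21.3 CPM), Mir582 and Mir6240, Mir216b to Mir3061, Mir5113 and Gm23450, and Mir216a to Mir1982, Mir3075 and Mir3109. None of the 7 genes was among the nearest of another. With only 2 libraries, such likeness is mostly a likeness of level.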

How the data were processed

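Per the labels and the deposited metadata text, the authors aligned reads to mm10 and counted them over GENCODE M4 miRNA genes; the aligner is not given in the sources used here. The deposited values are raw counts, 1 library per file. Their layout matches STAR gene counts, where a read enters only if placed once; the gene-strand column was used, and 4 summary rows were left out. Names and positions came from GENCODE M21 on the same assembly (1894 of 1973 identifiers named), sequences from RefSeq on GRCm38.p6.

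CPM used the gene-strand total. TMM (edgeR 4.0.16) was computed on genes with a mean of at least 10 counts, log2 ratios had a prior of 0.5 counts, and intervals were exact at 95% and cover counting error only. Binomial and Fisher tests used scipy 1.17.1, with a threshold of 0.05 after adjustment. Binomial p-values were adjusted over all tested genes, and Fisher p-values over the 8 shares or the 112 neighbouring pairs. The binomial step was tested on simulated counts that held counting error only. That check cannot show how the step behaves with spread between animals. The 7 genes were chosen by name, not by their values. Earlier results of these data were known when the genes, lists and tests were chosen. Named genes are the 7 genes, the 3 tested genes nearest to each, the 2 highest of each other list, and relatives by sequence or seed. Alternatives were other scalings (DESeq2 1.42.0 among them), filters, priors, columns and depths. A further miRNA gene of this class is not reported here.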

Additional observations from a re-analysis of the deposited data

How the results depend on the processing

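All 7 genes were detected in each library, with both strands counted and with replicate 2 thinned. Their summed level of 159 CPM was 77.9 CPM when scaled to all reads, and 110 CPM without Mir194-1 and Mir194-2, which share a 20-base stretch; with 1 replicate left out it ranged from 152 to 167 CPM. The share of Mir192 at its locus ranged from 56.9 to 68.6%, and that of Mir217 from 50.3 to 61.2%. With total counts 64 genes were called higher in replicate 2 in place of 102, and Mir216b, never called, turned to -0.057. Of the 3 called genes, 1 (Mir192) was left in the thinned data; 2 were left with total counts, with DESeq2 size factors, with no filter and at a mean of at least 100 counts, where 2 entered the test. Counting both strands ended no call, but it left the counts of the 7 genes unchanged, because they had none on the opposite strand. A prior of 2 counts could end no call, because the prior enters the log2 ratio and not the test. No paired analysis was possible because there is 1 group. Depth limits Mir215 and Mir194-1 most, at 3 counts each in replicate 1.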

Other observations

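The opposite-strand column held 0 counts for each of the 7 genes in each library, so the reads of these hairpins lay on the strand of the gene. This includes the site of Mir216b, where the hairpin of Mir216c lies on the other strand and holds the reverse complement of both mature strands of Mir216b. Mir216c has no row of its own in the count files, and a count of 0 allows up to 3 counts in each library.

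The seed of miR-194-2-3p also occurs in miR-6926-5p and miR-7055-5p. Mir6926 had 1 count in replicate 2 and 2 counts in replicate 1, which is under the floor of 3 counts, and Mir7055 has no row. In the RefSeq table no other mouse miRNA carries the seed of miR-194-5p, miR-216a-5p, miR-216b-5p or miR-217-5p.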
